A study of Mus musculus with 12 samples.

Results

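The 10 genes described here encode surface markers and homing receptors of plasma cells (PCs): *Sdc1*, *Cd93*, *Cxcr4*, *Cxcr3*, *Ccr10*, *S1pr1*, *Selplg*, *Cd44*, *Il6ra* and *Gpr65*. They were chosen by name, with earlier results of these data known, and each was found under its own symbol in all 10 RNA-seq libraries, among 24189 genes that the libraries share. RNA-seq was performed on plasmablasts (PBs) of 3 genotypes and on splenic PCs of 2 genotypes, with 2 libraries for each. The PBs were grown from splenic CD43- B cells in the iGB system, on the 40LB feeder line that presents CD40 ligand and BAFF, for 4 days with IL-4 and 4 days with IL-21, and were sorted on day 8 by a gate that included CD138+ and CD23-. Their genotypes were *Xbp1* fl/fl (the control), *Cd23*-Cre *Xbp1* fl/fl, in which Cre acts from the immature B cell onward, and *Bhlha15* CreER/CreER, in which CreER is inserted into the gene for the transcription factor Mist1. The PCs came from the spleen on day 7 after immunization with NP-KLH in alum and were sorted by TACI and CD138, from *Cd23*-Cre *Bhlha15* fl/fl mice and from controls that are labelled wild type and described as *Bhlha15* fl/fl in the study's methods. All mice were on the C57BL/6 background, and ages of the RNA-seq mice are not given in the sources used here. The floxed *Bhlha15* allele carries a biotin acceptor sequence, which was also used for 2 Mist1 Bio-ChIP-seq experiments on CD138+ PBs of *Bhlha15* fl/fl R26 BirA/BirA mice after 4 days of LPS. The CreER and the Cre-deleted *Bhlha15* alleles are different alleles, and no PB group carried *Cd23*-Cre without a floxed *Xbp1* gene.

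Plasma cells leave the site of their induction through sphingosine-1-phosphate sensed by S1pr1 and enter niches in the bone marrow, gut or inflamed tissue by following chemokines. Cxcr4 recognizes Cxcl12 of the bone marrow stroma, Cxcr3 the interferon-induced chemokines of inflamed tissue, and Ccr10 the epithelial chemokines Ccl27 and Ccl28. Selplg (PSGL-1) binds selectins, Cd44 binds hyaluronan, and syndecan-1 (Sdc1, CD138) is the heparan sulfate proteoglycan by which plasma cells are sorted. Cd93, a C-type lectin-like transmembrane protein, is known for the maintenance of PCs in the bone marrow, Il6ra is the ligand-binding chain of the interleukin-6 receptor, and Gpr65 is a G protein-coupled receptor that senses extracellular protons.

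Expression was given in TPM, a transcript abundance corrected for gene length. As each library adds up to 1000000 TPM, its depth is unknown. Between 11514 and 12024 genes reached 1 TPM in a library, and the median gene differed between the libraries of a group by 0.08 to 0.16 on the log2 scale. The labels were checked with the targeted genes. In control PBs, *Bhlha15* had 176 and 159 TPM, compared with 3.57 and 2.60 TPM after deletion of *Xbp1* and 0.21 and 0.55 TPM in *Bhlha15* CreER/CreER PBs. Control PCs had 258 and 242 TPM and *Cd23*-Cre *Bhlha15* fl/fl PCs 14.4 and 16.6 TPM. *Xbp1* itself had 3168 and 3043 TPM in control PBs and 1981 and 2024 TPM after *Cd23*-Cre deletion, a value that also covers the exons outside the deleted part. All 12 genes of a list of plasma cell regulators and secretory genes were detected at 1 TPM or more in both libraries of each group, except in *Bhlha15* CreER/CreER PBs, where 11 were. Markers of other cells were also present. The summed level of 12 fibroblast markers was 959 to 1867 TPM over the 6 PB libraries and 9.48 to 12.6 TPM over the 4 PC libraries, whereas that of the 13 neutrophil markers found in the files was 6.52 to 143 TPM in PBs and 486 to 1024 TPM in PCs. RNA was measured in bulk, so that fewer cells of a type and less RNA per cell cannot be told apart.

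The level of each gene in the 5 groups is described first. In control PCs, *Sdc1*, at 427 ± 44.7 TPM (SD, n = 2), and *Cxcr4*, at 280.0 ± 31.6 TPM, were the most abundant of the 10 transcripts, and *Il6ra*, at 27.8 ± 3.83 TPM, was the least abundant. In *Xbp1* fl/fl PBs, *Cd93* led with 514 ± 29.8 TPM, followed by *Cd44* with 403 ± 19.1 TPM, and *Cxcr3* was near the limit used for expressed genes, with 1.05 ± 0.53 TPM. Thus, 0.976% of all genes had a higher mean than *Cd93* in these PBs and 5.51% did in control PCs. When the 5 groups were placed in the order of their means, the 10 genes gave 40 pairs of neighbouring groups. In 18 pairs the libraries lay apart by more than the wider range of the replicates, in 13 they lay apart by less, and in 9 they overlapped. The overlapping pairs were the PB neighbours for *Sdc1*, control PCs with *Xbp1* fl/fl PBs for *Ccr10* and *Selplg*, control PCs with *Bhlha15* CreER/CreER PBs for *Selplg*, both PC groups for *S1pr1* and *Cd44*, control with *Bhlha15* CreER/CreER PBs for *Il6ra*, and the mutant PBs for *Gpr65*.

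**Figure D1:**
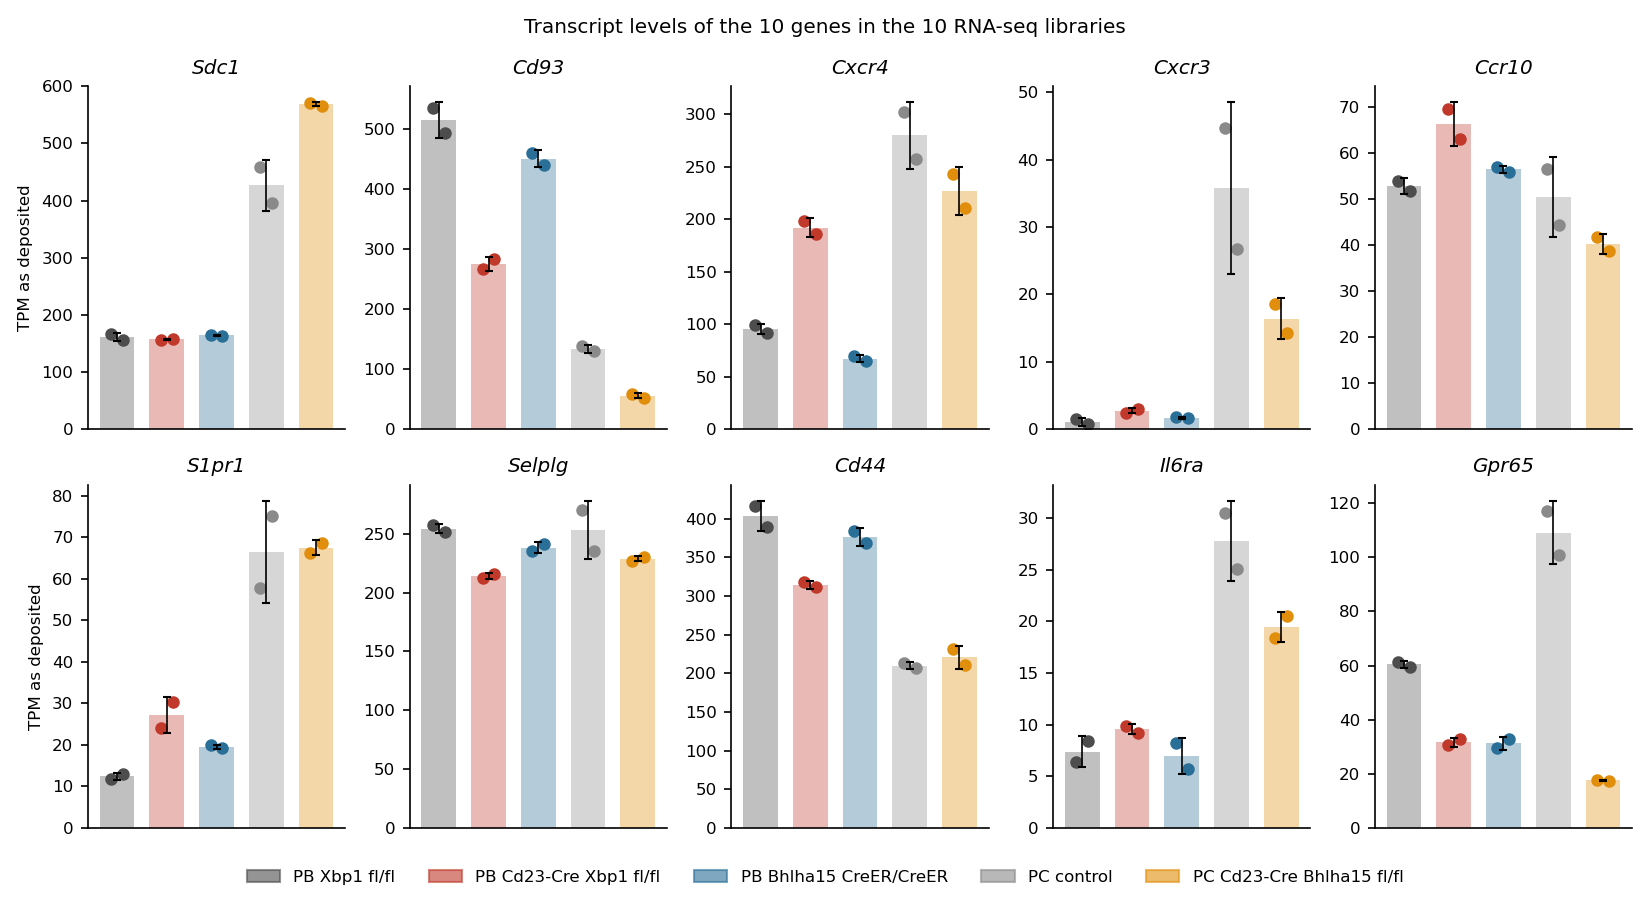
TPM of the 10 genes as deposited (y axes, each from 0) in the 5 groups; dots are libraries, bars are means and error bars are SDs (n = 2). *Gpr65* was lower in each mutant group than in its control, whereas *Sdc1* was alike in the 3 PB groups and higher in both PC groups.

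Loss of Xbp1 in PBs was studied by comparing *Cd23*-Cre *Xbp1* fl/fl with *Xbp1* fl/fl PBs. Of the 10 genes, *Cd93*, *Gpr65*, *Cd44* and *Selplg* fell, and *Cxcr4* and *S1pr1* rose. The calls were made with limma at a Benjamini-Hochberg adjusted p under 0.05 over all 12125 genes tested, of which 18.0% were called lower and 10.3% higher. No gene of the 10 passed the thresholds of the study (a fold above 3 and more than 5 TPM in the higher group in addition), which 1.87% of all genes passed. The median log2 fold change of the 10 genes was -0.06, compared with 0.00414 for all genes tested.

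Among the receptors for chemoattractants, *Cxcr4* was measured at 98.9 and 91.9 TPM in the control libraries and at 198 and 186 TPM in the mutant libraries. All mutant values were above all control values, and the difference was 1.74-fold (log2 fold change 0.80 ± 0.09 (SE), limma adjusted p = 0.000218). *S1pr1* increased from 11.8 and 13.1 TPM to 24.1 and 30.3 TPM, a 1.88-fold difference (adjusted p = 0.000746 by limma). For *Cxcr3*, the values of 1.42 and 0.67 TPM in controls and 2.43 and 2.98 TPM in mutant PBs gave a log2 fold change of 1.17 with a 95% interval from 0.29 to 2.04 and a limma adjusted p of 0.0531. The libraries of *Cxcr3* did not overlap, but its level was low, and its log2 fold change ranged from 0.64 to 1.70 with a library left out. *Ccr10* stood at 54.0 and 51.6 TPM in controls and at 69.6 and 62.9 TPM in mutant PBs. After scaling of the libraries its log2 difference was 0.12, with an interval from -0.09 to 0.33 (adjusted p = 0.379), while it was 0.33 with the TPM as deposited (limma adjusted p = 0.01).

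*Gpr65*, the proton sensor, was at 61.3 and 59.6 TPM in control PBs and decreased to 30.5 and 32.8 TPM in the mutant (log2 fold change -1.14 ± 0.11 (SE), limma adjusted p = 0.000132). *Cd93* fell from 535 and 493 TPM to 266 and 283 TPM, which was 2.16-fold (log2 fold change -1.11 ± 0.09 (SE), limma adjusted p = 5.62e-05). For both genes the gap between the groups was several times the range of the replicates. *Cd44*, the hyaluronan receptor, decreased from 417 and 389.5 TPM to 318 and 311 TPM (1.48-fold, limma adjusted p = 0.00181). *Selplg* decreased from 257 and 252 TPM to 212 and 216 TPM (1.37-fold, limma adjusted p = 0.00528), and this call was lost without *Xbp1* fl/fl replicate 1 (adjusted p = 0.0626). The sort marker *Sdc1* was nearly level, with 166 and 157 TPM in control and 157 and 157 TPM in mutant PBs. Its scaled log2 difference was -0.25, with an interval from -0.44 to -0.05 (limma adjusted p = 0.0628). With a library left out, this difference ranged from -0.33 to -0.16. As every PB was gated on CD138, the protein that *Sdc1* encodes, the gate bears on this gene. *Il6ra* was low, at 6.37 and 8.43 TPM in control and 9.90 and 9.23 TPM in mutant PBs (log2 difference 0.17, interval from -0.21 to 0.56).

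The scaling mattered for all genes in this comparison. Without it all genes had a median of 0.21 on the log2 scale, and 71.6% of the called genes were higher in the mutant, compared with 36.4% after scaling. The 6 calls described above were made under both. The fibroblast markers summed to 1221 and 1461 TPM in the control and to 1716 and 1867 TPM in the mutant libraries (1 of 9 tested fell and none rose; *Col1a1*, their most abundant gene, was at 588 and 705 TPM and at 904 and 834 TPM). The 13 neutrophil markers summed to 13.5 to 14.1 TPM in the control and to 142 to 143 TPM in the mutant libraries (7 of 8 tested rose; *Elane* was listed at 0 in all 4 libraries). The 12 T cell markers summed to 45.1 to 53.1 TPM and 118 to 127 TPM. Of 4 tested, *Thy1* alone rose, from a mean of 37.0 to 105.9 TPM, and *Cd3g*, *Lck* and *Lat* did not pass the test. The 10 macrophage markers summed to 135 to 136 TPM and 33.1 to 35.6 TPM (of 2 tested, *Cd68* fell and *Lyz2* rose). Their part in the differences of the 10 genes was not tested.

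Genes that act together with the 10 receptors were examined from lists written by hand. After loss of Xbp1, 13 of 25 tested genes for syndecans and the synthesis of glycosaminoglycans, which decorate syndecans, fell and 1 rose. Their median log2 fold change was -0.47. The largest changes were those of the chondroitin polymerizing factors *Chpf2*, which was at 107 and 105 TPM in control and at 32.4 and 33.1 TPM in mutant PBs (log2 fold change -1.90 ± 0.08 (SE), limma adjusted p = 1.38e-06), and *Chpf* (log2 fold change -1.51), together with the sulfotransferase gene *Chst12* (-1.31) and the heparan sulfate polymerase gene *Ext1* (-1.30). Of the 7 tested chemokine receptor genes outside the 10, 3 fell, including *Ccr6* (log2 fold change -1.69) and *Ccr4* (-0.90), and 2 rose, *Ackr4* (1.31) and *Ccr7* (0.96). *Ccr4* and *Ccr7* are named after their values were seen, and none of these 4 genes exceeded 29.7 TPM in the libraries compared. *Ccr6*, with means of 2.51 TPM in control and 0.82 TPM in mutant PBs, and *Ackr4*, with 0.75 and 2.35 TPM, were near the limit used for expressed genes. *S1pr4* fell 2.10-fold, and the other 4 tested genes for sphingosine-1-phosphate, oxysterol and proton receptors did not pass the test. Of 20 genes for G protein signaling downstream of these receptors, 3 fell and 4 rose, among them *Rgs10*, a regulator that shortens G protein signals, which was at 62.3 and 59.5 TPM in control and at 198 and 190 TPM in mutant PBs (2.75-fold higher, limma adjusted p = 1.36e-05).

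In the other lists, 7 of 20 tested genes of interleukin-6 and related cytokine receptor signaling fell and 2 rose. *Il2rg*, the common chain of the receptors for IL-4 and IL-21, was at 916 and 821 TPM in control and at 249 and 251 TPM in mutant PBs (4.01-fold lower, limma adjusted p = 6.93e-06). Of 22 other plasma cell surface molecules, 7 fell and 6 rose, with *Cd52* decreasing 2.14-fold and the adhesion molecule *Epcam* rising from 1.96 and 2.56 TPM to 29.4 and 27.6 TPM. Of 9 tested genes for selectins and selectin ligand synthesis 3 fell and 1 rose, of 9 genes for hyaluronan, ERM proteins and Cd44 partners 3 fell and 1 rose, and of 6 relatives and ligands of Cd93 none fell and 2 rose.

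Loss of Mist1 in the same culture was studied with *Bhlha15* CreER/CreER PBs, which were compared with the same *Xbp1* fl/fl libraries. Of the 10 genes, *Gpr65* alone fell and none rose, against 0.272% of 12125 genes called lower and 0.0495% called higher by limma. *Gpr65* was at 29.6 and 32.9 TPM in the mutant libraries, all below the control values of 61.3 and 59.6 TPM, and the decrease was 1.88-fold (log2 fold change -0.91 ± 0.11 (SE), limma adjusted p = 0.0165). The adjusted p was 0.249 without *Xbp1* fl/fl replicate 1 and 0.0987 without replicate 2, whereas the log2 fold change stayed between -1.06 and -0.75 when a library was left out.

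Further receptors lay apart from the control libraries without passing the test. *S1pr1* was at 19.9 and 19.2 TPM, above the control values, with a log2 difference of 0.69 and an interval from 0.42 to 0.97 (limma adjusted p = 0.0665). With a library left out, the log2 difference of *S1pr1* ranged from 0.65 to 0.75. *Cxcr4* was at 69.3 and 64.7 TPM, below the control values, with a log2 difference of -0.47 and an interval from -0.66 to -0.27 (adjusted p = 0.0901 by limma). It passed the threshold with the TPM as deposited (log2 difference -0.51, adjusted p = 0.0246) and after quantile normalization (-0.49, adjusted p = 0.0289). *Cxcr4* therefore had a lower value in this mutant and a higher one in *Cd23*-Cre *Xbp1* fl/fl PBs than in the shared control. The log2 differences of *Sdc1*, *Cd93*, *Ccr10*, *Selplg*, *Cd44* and *Il6ra* were between -0.15 and 0.14, and their intervals lay between -0.44 and 0.35. That of *Cxcr3* was 0.74, with an interval from -0.14 to 1.61. In the lists of related genes, *Bhlha15* itself was the only gene that passed the test.

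A direct comparison of *Cd23*-Cre *Xbp1* fl/fl with *Bhlha15* CreER/CreER PBs asked where both mutants differed. *Cd93*, *Cd44*, *Selplg* and *Sdc1* were lower and *Cxcr4* was higher in the Xbp1 mutant, against 17.8% of all genes called lower and 9.34% higher. *Cxcr4* had the largest difference (2.41-fold, log2 fold change 1.27 ± 0.09 (SE), limma adjusted p = 1.71e-05), as its 198 and 186 TPM stood against 69.3 and 64.7 TPM. *Cd93* was at 266 and 283 TPM against 460.2 and 439.9 TPM (1.95-fold lower, limma adjusted p = 0.000128). *Cd44*, at 318 and 311 TPM, was below 384 and 368 TPM (log2 fold change -0.51, limma adjusted p = 0.00325), and *Selplg*, at 212 and 216 TPM, was below 235 and 242 TPM (log2 fold change -0.41, limma adjusted p = 0.00954). The call of *Selplg* was lost without *Cd23*-Cre *Xbp1* fl/fl replicate 1 (log2 difference -0.40, adjusted p = 0.0522). Of 8 tested neutrophil markers 7 were higher in the Xbp1 mutant, with sums of 142 to 143 TPM against 6.52 to 12.9 TPM. Of 2 tested macrophage markers, *Cd68* was 10.1-fold lower and *Lyz2* was 2.12-fold higher. Their part in the differences was not tested.

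The *Sdc1* call rests on the scaling. The deposited values were 157 and 157 TPM against 164 and 163 TPM, and the log2 difference was -0.31 after scaling (limma adjusted p = 0.0274) and -0.06 without it (adjusted p = 0.356). It was also lost without either *Cd23*-Cre *Xbp1* fl/fl library (adjusted p = 0.102 and 0.106), where the log2 difference stayed at -0.32 and -0.31, and without *Bhlha15* CreER/CreER replicate 2 (-0.24, adjusted p = 0.0862). Without scaling, the median of all genes moved to 0.26, and the share of higher genes among those called moved from 34.4% to 75.9%. *Gpr65* did not pass the test, with 30.5 and 32.8 TPM against 29.6 and 32.9 TPM, libraries that overlapped. Its scaled log2 difference was -0.23 with an interval from -0.48 to 0.02. This difference was 0.02 with the TPM as deposited and ranged from -0.39 to -0.08 with a library left out. *S1pr1* and *Ccr10* did not pass either, with log2 differences of 0.21 and -0.02 (0.46 and 0.23 without scaling, at adjusted p = 0.0243 and 0.0363).

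**Figure D2:**
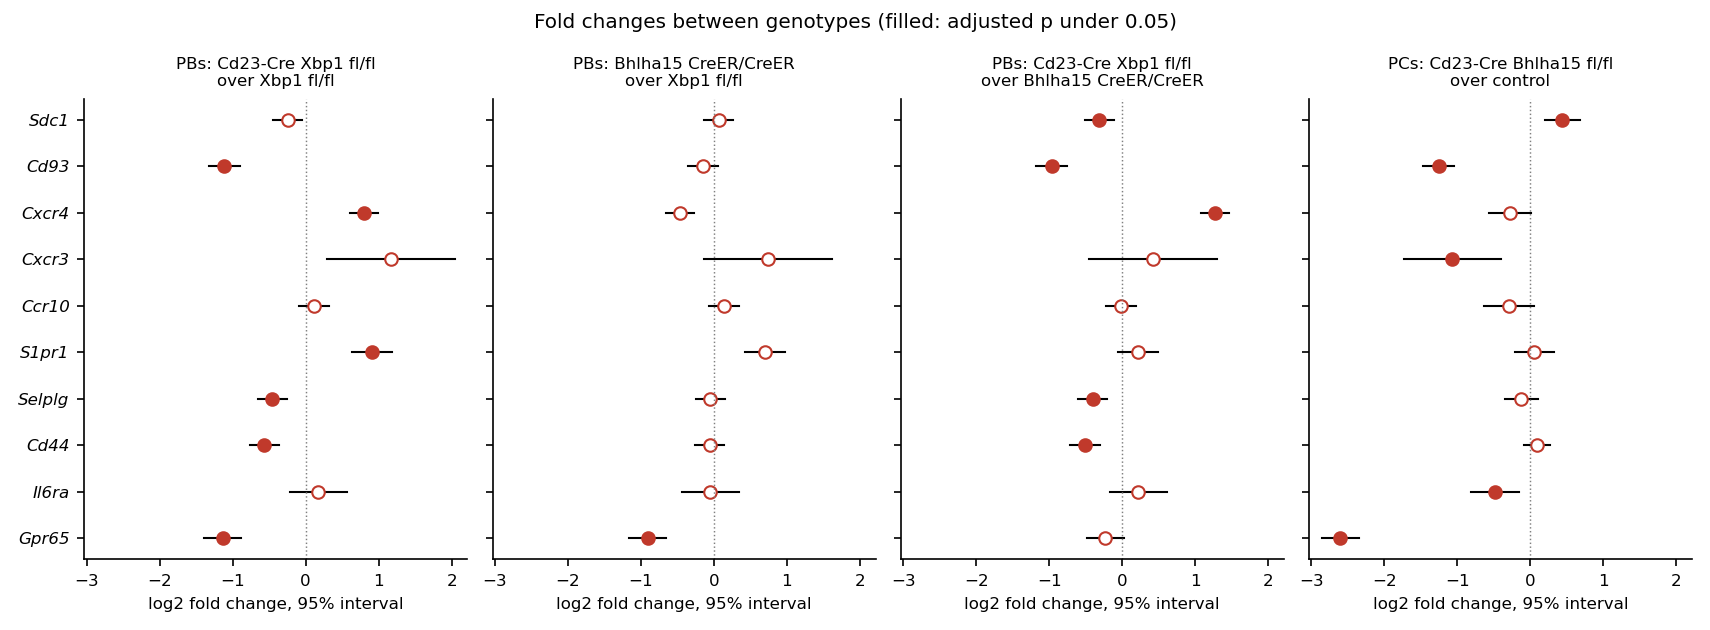
Log2 fold changes of the 10 genes (x axis) in the 4 comparisons between genotypes; horizontal lines are 95% intervals and filled circles mark a limma adjusted p under 0.05. *Gpr65* was called lower in 3 comparisons, most strongly in PCs (-2.60), and *Cd93* in 3; *Cxcr4* was higher after loss of Xbp1 than in either other PB group.

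The role of Mist1 in PCs was studied by comparing *Cd23*-Cre *Bhlha15* fl/fl with control splenic PCs. *Gpr65*, *Cd93*, *Cxcr3* and *Il6ra* fell and *Sdc1* rose, whereas 16.2% of the 12028 genes tested were called lower and 13.3% higher by limma. *Gpr65* alone passed the thresholds of the study, as did 0.848% of all genes. The study put *Gpr65* on its own list of Mist1-activated genes from these same libraries, so that its change here is no independent observation. The median log2 fold change of the 10 genes was -0.29, and that of all genes was 0.0143.

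*Gpr65* was at 117 and 101 TPM in control PCs and at 17.8 and 17.4 TPM in mutant PCs. The decrease was 6.07-fold (log2 fold change -2.60 ± 0.10 (SE), 95% interval from -2.85 to -2.35, limma adjusted p = 0.000748), and the range of the replicates was small beside it. *Cd93* fell from 139 and 129 TPM to 58.4 and 52.3 TPM (2.39-fold, log2 fold change -1.26 ± 0.09 (SE), limma adjusted p = 0.00133). These 2 calls were made in each of the 11 alternative settings for this comparison, the fits without a library included.

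The other 3 calls were not made in every fit without a library. *Cxcr3*, the receptor for chemokines of inflamed tissue, was at 44.8 and 26.7 TPM in control PCs and at 18.5 and 14.2 TPM in mutant PCs (log2 fold change -1.07 ± 0.27 (SE), limma adjusted p = 0.0339), and the control libraries lay farther from each other than the lower of them lay from the nearest mutant library. Without *Cd23*-Cre *Bhlha15* fl/fl replicate 1 or 2 the adjusted p of *Cxcr3* was 0.0538 or 0.156. *Il6ra* was at 30.5 and 25.1 TPM in control PCs and at 18.4 and 20.5 TPM in mutant PCs (log2 fold change -0.49 ± 0.13 (SE), limma adjusted p = 0.0406). Its call was lost without control replicate 1 (adjusted p = 0.0699) and without either mutant library (adjusted p = 0.174 and 0.106). *Sdc1* increased from 458 and 395 TPM to 571 and 566 TPM (log2 fold change 0.44 ± 0.10 (SE), limma adjusted p = 0.023) and lost its call without either mutant library (adjusted p = 0.107 and 0.127), although its log2 fold change stayed at 0.44. In these fits, 1341 and 1110 genes were called in all, compared with 3554 with all 4 libraries. In these cells, too, the gate selected CD138.

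The remaining 5 genes did not pass the test. *Cxcr4* was at 302 and 258 TPM in control and 243 and 211 TPM in mutant PCs (log2 difference -0.28, interval from -0.57 to 0.01), and *Ccr10* at 56.5 and 44.3 TPM and at 41.7 and 38.7 TPM (log2 difference -0.30, interval from -0.64 to 0.05). The libraries of both genes were apart, but by less than the range of the control libraries. *S1pr1* was at 57.7 and 75.1 TPM in control and 66.3 and 68.8 TPM in mutant PCs, *Selplg* at 270.4 and 236 TPM and at 227 and 230.4 TPM, and *Cd44* at 213 and 206 TPM and at 231 and 210.3 TPM. Their log2 differences were 0.06 (interval from -0.21 to 0.33), -0.12 (-0.35 to 0.11) and 0.09 (-0.09 to 0.27). With a library left out, the log2 difference of *Cxcr4* ranged from -0.43 to -0.14 and that of *Ccr10* from -0.50 to -0.09. *S1pr1* ranged from -0.10 to 0.21, *Selplg* from -0.25 to 0.008 and *Cd44* from 0.03 to 0.16. Without control replicate 2, the log2 differences of *Cxcr4*, *Ccr10*, *S1pr1* and *Selplg* were -0.43, -0.50, 0.21 and -0.25, at the ends of these ranges. On which side of the threshold they lay depended on that library. Control replicate 1 had the highest neutrophil level of all libraries, with 1024 TPM summed over 13 markers, compared with 486 TPM in control replicate 2 and 583 and 884 TPM in the mutant libraries (none of the 13 passed the test). The 12 T cell markers summed to 119.5 to 121 TPM in control and to 139 to 182 TPM in mutant PCs (2 rose), and the 10 B cell markers to 3386 to 3790 TPM and to 2999 to 3165 TPM (2 fell). Their part in the differences was not tested.

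Among the related genes, those for other G protein-coupled receptors are given first. Of 5 tested genes for sphingosine-1-phosphate, oxysterol and proton receptors other than *S1pr1* and *Gpr65*, 4 fell and none rose, with a median log2 fold change of -0.67. *S1pr4* decreased from 62.4 and 56.2 TPM to 27.3 and 29.5 TPM (log2 fold change -1.04 ± 0.09 (SE), limma adjusted p = 0.00213). The others, named here after their values were seen, were *S1pr2*, which confines B cells to germinal centers (1.59-fold lower), the oxysterol receptor gene *Gpr183* (22.8 and 23.3 TPM against 15.2 and 14.8 TPM) and *Gpr132*, a relative of *Gpr65* (58.7 and 65.6 TPM against 38.9 and 37.6 TPM). The libraries of these 4 genes did not overlap. The 6 germinal center B cell markers, a list that also holds *S1pr2*, summed to 61.3 to 69.8 TPM in control PCs and to 42.6 TPM in both mutant libraries, and *Fas* (1.88-fold lower) and *S1pr2* fell while none rose. The part of these markers in the differences was not tested. Of 16 tested chemokine receptor genes 3 fell and none rose, while 16.2% of all genes were called lower. Among the 3 was *Ccrl2*, a non-signaling chemerin receptor, which was at 55.9 and 44.7 TPM in control and at 16.3 and 13.5 TPM in mutant PCs (3.31-fold lower, limma adjusted p = 0.00205). Of 21 genes for G protein signaling 8 fell and none rose, all by less than 2-fold.

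Genes for glycosaminoglycans divided in PCs, with 4 lower and 5 higher of 25 tested. *Hs2st1*, a heparan sulfate 2-O-sulfotransferase, fell from 25.5 and 21.5 TPM to 5.70 and 5.60 TPM (log2 fold change -2.01 ± 0.13 (SE), limma adjusted p = 0.00133), and *Ndst1*, which starts heparan sulfate modification, fell 2.04-fold. Of the interleukin-6 and related genes, 4 of 19 fell and 2 rose, and *Socs3*, a feedback inhibitor of this signaling, decreased 2.52-fold. Of 20 other plasma cell surface molecules, 3 fell and 8 rose, none of them by 2-fold. Genes for selectins and selectin ligands included 2 that fell and 4 that rose of 10, those for hyaluronan and Cd44 partners 1 of each of 8, and the relatives of Cd93 also 1 of each, of 4.

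Whether the change in Mist1-mutant cells differed between PCs and PBs was tested by an interaction contrast in a fit of all 10 libraries. *Gpr65* and *Cd93* passed this test, and 6.11% of 13230 genes did. The decrease of *Gpr65* was larger in PCs by 1.68 on the log2 scale (interval of the difference from -2.02 to -1.34, limma adjusted p = 0.00241), since it fell 6.07-fold in PCs and 1.88-fold in PBs. For *Cd93*, the log2 fold change was -1.26 in PCs and -0.15 in PBs, and the difference was -1.09 (interval from -1.35 to -0.84, limma adjusted p = 0.00394). The contrasts of the other 8 genes missed the threshold, with *Cxcr3* at -1.79 (adjusted p = 0.0688), *S1pr1* at -0.62 (0.0699) and *Sdc1* at 0.39 (0.102) by limma being nearest to it. Of these, *Sdc1* passed with the TPM as deposited (limma adjusted p = 0.0398). With a library left out, the contrast ranged from -2.30 to -1.28 for *Cxcr3*, from 0.25 to 0.53 for *Sdc1* and from -0.62 to -0.21 for *Ccr10*. Cell stage, culture or mouse, sort gate, allele and control genotype cannot be told apart in this contrast.

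Among the related genes, 4 of the 5 sphingosine-1-phosphate, oxysterol and proton receptor genes passed the interaction test in the same direction, namely *Gpr183*, *S1pr4*, *S1pr2* and *Gpr132*, with differences of -0.68, -0.74, -0.60 and -0.42. *Hs2st1* had a difference of -1.41 ± 0.18 (SE) (limma adjusted p = 0.00768), from log2 fold changes of -2.01 in PCs and -0.59 in PBs. *Socs3* (-1.57) and *Rgs1* (-2.14) passed as well, with log2 fold changes of -1.33 and -0.83 in PCs and of 0.25 and 1.32 in PBs, where neither passed the test. Of the 6 germinal center B cell markers, *Fas* and *S1pr2* also passed, with differences of -0.85 and -0.60.

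The levels in control PCs were finally compared with those in *Xbp1* fl/fl PBs. *Cxcr3*, *S1pr1*, *Il6ra*, *Cxcr4*, *Sdc1* and *Gpr65* were higher and *Cd93* and *Cd44* were lower in PCs, whereas *Ccr10* and *Selplg* did not pass the test. Most genes differed in this comparison, 38.4% being lower and 37.6% higher of 13230 tested, so that 8 calls among 10 genes were close to the share of all genes. Stage, culture or mouse, sort gate, control genotype and library series cannot be told apart here, and the PB libraries are the same as those used above.

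*Cxcr3* had the largest difference, as it rose from 1.42 and 0.67 TPM to 44.8 and 26.7 TPM (log2 difference 4.89 ± 0.35 (SE), limma adjusted p = 1.87e-06). *S1pr1*, at 57.7 and 75.1 TPM in PCs against 11.8 and 13.1 TPM in PBs, was 4.87-fold higher. *Il6ra* was 3.45-fold, *Cxcr4* 2.71-fold, *Sdc1* 2.44-fold and *Gpr65* 1.66-fold higher in PCs, with limma adjusted p-values between 1.28e-06 and 0.000194. *Cd93*, at 139 and 129 TPM in PCs against 535 and 493 TPM in PBs, was 4.15-fold lower, and *Cd44*, at 213 and 206 TPM against 417 and 389.5 TPM, was 2.08-fold lower. *Cd93*, *Cxcr3*, *S1pr1* and *Il6ra* also passed a fold above 3. For *Ccr10* and *Selplg* the log2 differences were -0.19 (interval from -0.47 to 0.09) and -0.12 (-0.31 to 0.07). They were -0.39 and -0.25 without control PC replicate 1, and 0.0143 and 0.0046 without control PC replicate 2. Their sign thus depended on the control library left out.

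Markers of other cells moved with this comparison. The 9 tested fibroblast markers were all lower in PCs, where the list summed to 10.4 to 12.5 TPM, compared with 1221 to 1461 TPM in the PB libraries. The 13 neutrophil markers were all higher, with 486 to 1024 TPM against 13.5 to 14.1 TPM, and so were 11 of 12 T cell markers (119.5 to 121 TPM against 45.1 to 53.1 TPM) and 8 of 9 tested macrophage markers (263 to 270 TPM against 135 to 136 TPM). Of 10 B cell markers 7 were higher and 2 lower (3386 to 3790 TPM against 2950 to 2976 TPM), of 6 germinal center B cell markers 4 were lower and none higher (61.3 to 69.8 TPM against 151 to 165 TPM), and the 3 tested erythroid markers were higher (9.62 to 11.2 TPM against 0.40 to 0.63 TPM). Of 4 tested platelet markers 2 were higher. *Cd3e*, which defines T cells, was at 8.69 and 10.8 TPM in PCs and listed at 0 in both PB libraries. Their part in the differences of the 10 genes was not tested.

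**Figure D3:**
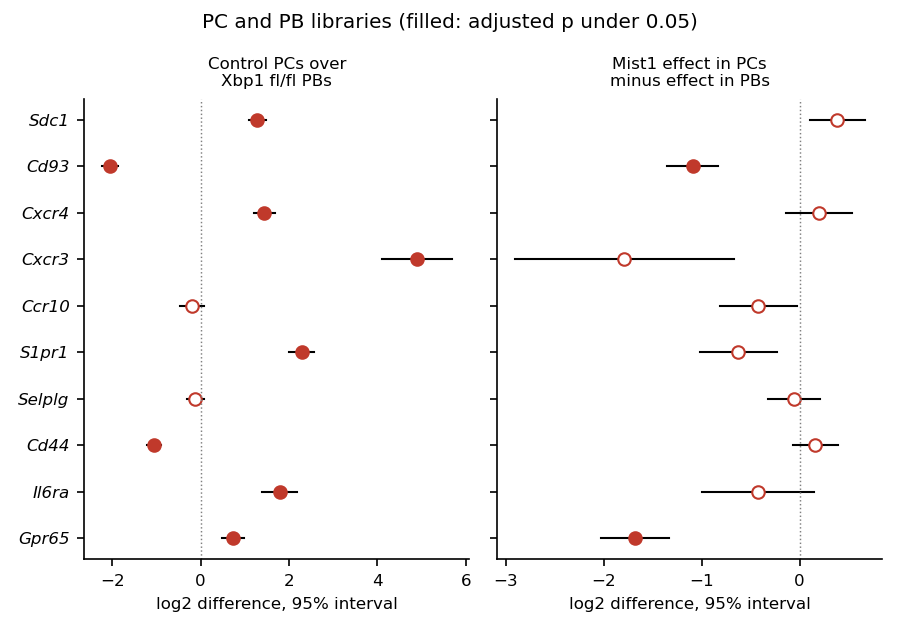
Log2 differences of the 10 genes (x axes, different scales) between control PCs and *Xbp1* fl/fl PBs on the left, and the interaction contrast of the Mist1 effects on the right; lines are 95% intervals and filled circles mark a limma adjusted p under 0.05. *Cxcr3* had the largest stage difference (4.89), and *Gpr65* and *Cd93* were the genes whose Mist1 effect differed.

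Other homing genes gave larger differences between the stages. Of 17 tested chemokine receptor genes outside the 10, 13 were higher and 2 lower in PCs. *Ccr9*, the receptor for the gut chemokine Ccl25, was at 15.3 and 13.4 TPM in PCs and at 0 and 0.05 TPM in PBs, while *Ccr4* was at 0.42 and 0.13 TPM in PCs and at 29.7 and 28.0 TPM in PBs. *Ccr1* and *Ccr2* reached 2.74 to 5.38 TPM in PCs and were listed at 0 in both PB libraries. Of 11 genes for selectins and selectin ligand synthesis 6 were higher and 4 lower, with log2 differences of 4.43 for the fucosyltransferase gene *Fut4* and -1.82 for the sialyltransferase gene *St3gal6*. Of 26 genes for syndecans and glycosaminoglycans, 11 were lower and 8 higher, and the relatives of *Sdc1* differed among themselves, with log2 differences of -8.00 for *Sdc2*, -2.01 for *Sdc4* and 2.23 for *Sdc3*. Of 10 genes for hyaluronan and Cd44 partners 9 were lower, among them *Spp1*, which encodes the Cd44 ligand osteopontin and was at 218 and 256 TPM in PBs and at 0.92 and 0.55 TPM in PCs. Of 6 relatives and ligands of Cd93 5 were lower, including *Igfbp7* (19.8 and 27.4 TPM in PBs against 1.75 and 2.79 TPM in PCs). The PBs were grown on feeder cells, and fibroblast markers summed to 1221 to 1461 TPM in PBs and 10.4 to 12.5 TPM in PCs. The part of other cells in the differences of these related genes was not tested.

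Of 20 interleukin-6 and related genes, 11 were lower, such as *Il21r* (log2 difference -2.31), and 6 were higher, such as *Il27ra* (3.56) and *Il10ra* (3.35). *Tnfrsf17*, which encodes the BAFF and APRIL receptor BCMA, was at 584 and 572 TPM in PCs and at 32.0 and 33.2 TPM in PBs, and *Ly6c2* was at 2444 and 2148 TPM and at 19.7 and 17.1 TPM. Both belong to 22 other plasma cell surface molecules, of which 13 were higher and 8 lower.

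The binding of Mist1 was taken from the peak lists of the 2 Bio-ChIP-seq experiments, with 29413 and 30247 peaks, which were called separately and overlapped in 23806 common regions (at least 1 bp shared). The study reports more peaks for each experiment and more common peaks, so that the regions used here are not its published set. A common region lay within 1 kb of an annotated transcription start site (TSS) of 9 of the 10 genes, all but *Cxcr3*, and within 10 kb of all 10. Among 11721 expressed protein-coding genes, 60.2% had a region at a TSS and 79.6% within 10 kb. The lists give positions alone, without heights, so that the strength of binding was not compared, and the peaks come from LPS-stimulated PBs, not from the cells used for RNA-seq.

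*Gpr65*, on the plus strand at chr12:99506845-99514834 (mm9), had a single region, chr12:99506276-99509381, which spans its start site. *Cd93*, on the minus strand at chr2:148262376-148269299, had a region of 4211 bp over its start site, chr2:148265477-148269687, and 2 regions downstream of the gene, centered 11895 and 14531 bp from the start. *Cxcr4*, on the minus strand at chr1:130484776-130488870, had 6 regions, 2 of them within 1 kb of a TSS. *S1pr1*, *Selplg*, *Cd44* and *Il6ra* each had a region over the start site. *Cd44* and *Il6ra*, the longest of the 10 genes at 90525 and 43839 bp, had 7 further regions each in the gene body. At *Sdc1*, on the plus strand at chr12:8778129-8800521, the common region near a TSS was centered 1649 bp inside the gene, and a peak at the gene start was present in experiment 2 but not in experiment 1. The region at *Ccr10*, at chr11:101034311-101036757 on the minus strand, also overlaps the gene *Cntnap1*. The region nearest to *Cxcr3*, at chrX:98926874-98929608 on the minus strand, was centered at -1978 bp from its start, which is upstream. No exon of the 10 genes overlaps an exon of another gene in this annotation.

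**Figure D4:**
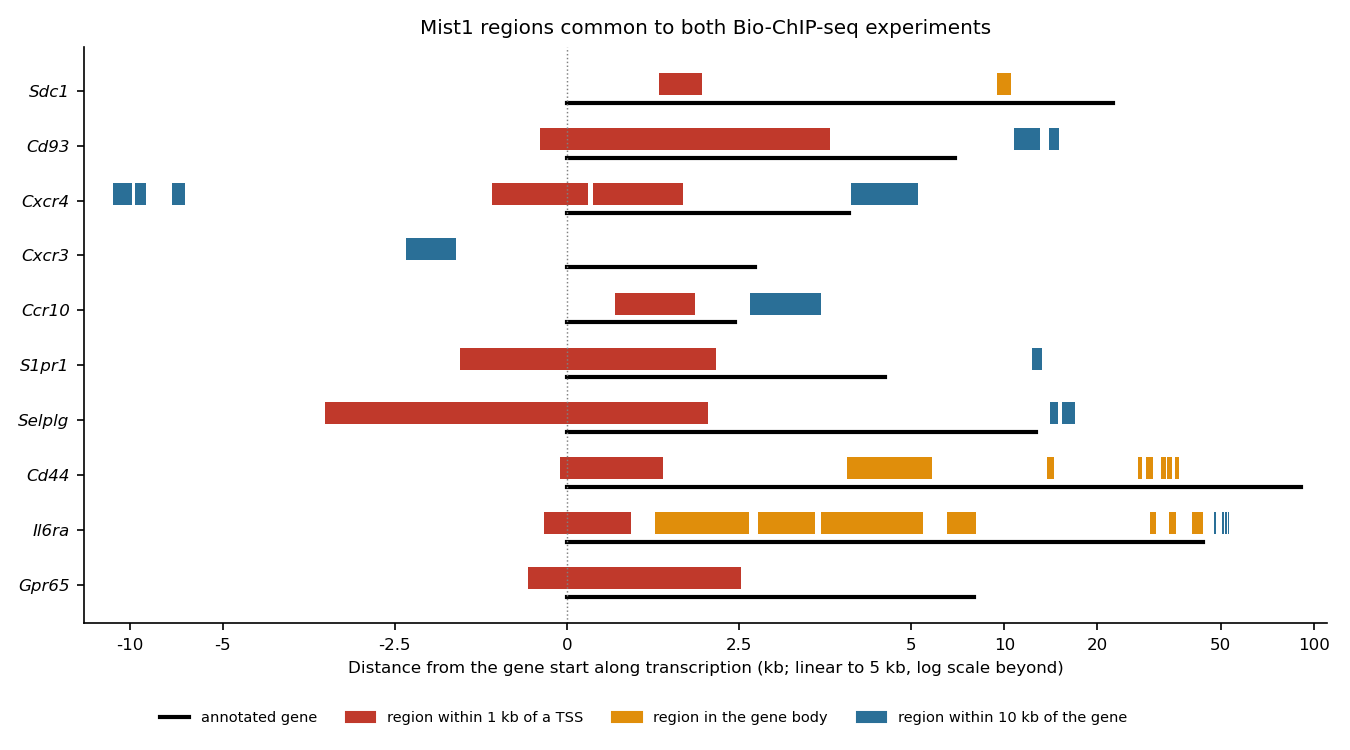
Mist1 regions found in both Bio-ChIP-seq experiments (boxes) around the 10 genes (black lines), colored red within 1 kb of a TSS, orange in the gene body and blue within 10 kb of the gene, by distance from the gene start along the direction of transcription in kb; the x axis is linear to 5 kb and logarithmic beyond. *Gpr65* had 1 region, at its start, *Cxcr3* had 1 region upstream, and *Il6ra* had 12.

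The 250 bases upstream of the start site are shown for the 5 genes that were called in the comparison of splenic PCs, because the class of factors to which Mist1 belongs, the basic helix-loop-helix proteins, binds E-boxes. Each is written from 5′ to 3′ along the gene's strand in mm9, with every CANNTG in capitals. This motif reads alike on both strands.
*Gpr65* (chr12:99506595-99506844, plus strand): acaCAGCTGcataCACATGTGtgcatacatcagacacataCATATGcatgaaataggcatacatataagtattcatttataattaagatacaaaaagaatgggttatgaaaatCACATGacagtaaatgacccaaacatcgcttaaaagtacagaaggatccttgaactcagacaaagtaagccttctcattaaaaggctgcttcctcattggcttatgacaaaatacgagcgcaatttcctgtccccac
*Cd93* (chr2:148269300-148269549, minus strand): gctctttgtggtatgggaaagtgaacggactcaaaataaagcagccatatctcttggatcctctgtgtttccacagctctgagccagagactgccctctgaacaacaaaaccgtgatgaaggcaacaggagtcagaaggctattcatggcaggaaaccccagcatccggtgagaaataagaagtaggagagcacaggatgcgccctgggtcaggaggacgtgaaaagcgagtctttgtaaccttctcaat
*Cxcr3* (chrX:98929609-98929858, minus strand): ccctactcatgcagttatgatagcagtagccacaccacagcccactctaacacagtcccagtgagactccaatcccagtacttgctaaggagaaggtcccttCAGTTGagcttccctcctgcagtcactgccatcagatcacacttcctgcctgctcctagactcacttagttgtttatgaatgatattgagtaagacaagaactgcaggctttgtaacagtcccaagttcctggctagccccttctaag
*Il6ra* (chr3:89717085-89717334, minus strand): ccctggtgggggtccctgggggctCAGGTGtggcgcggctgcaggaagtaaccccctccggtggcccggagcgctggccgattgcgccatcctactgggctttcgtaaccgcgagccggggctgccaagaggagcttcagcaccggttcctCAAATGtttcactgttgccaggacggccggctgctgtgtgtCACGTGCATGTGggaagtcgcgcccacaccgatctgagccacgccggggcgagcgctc
*Sdc1* (chr12:8777879-8778128, plus strand): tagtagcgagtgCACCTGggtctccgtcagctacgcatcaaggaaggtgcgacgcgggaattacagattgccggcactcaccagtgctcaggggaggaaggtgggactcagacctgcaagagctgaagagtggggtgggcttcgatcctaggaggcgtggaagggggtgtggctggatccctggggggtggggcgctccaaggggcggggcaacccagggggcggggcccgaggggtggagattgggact

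The windows of *Gpr65*, *Cd93* and *Il6ra* lie within common Mist1 regions over all 250 bases, and those of *Cxcr3* and *Sdc1* hold no base of such a region. The *Gpr65* window contains 5 copies of CANNTG, of which 2 overlap, 1 is CAGCTG and 1 is CATATG. That of *Il6ra* contains 4 copies, 1 of them CAGGTG, and those of *Cxcr3* and *Sdc1* contain 1 each. The *Cd93* window contains none, although it lies in a region. That whole region of 4211 bp holds 29 copies of CANNTG, 5 of them CAGCTG. Of the same windows of all 10 genes, 6 contain CANNTG and 1 contains CAGCTG, whereas 63.3% and 11.7% of the windows of 22367 protein-coding genes do. A match describes the sequence only and does not show a binding site.

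Finally, the genes whose levels were most like those of the 10 genes were listed by Pearson's r of the log2 values over the 10 libraries, among 9860 genes with a mean of at least 5 TPM. The libraries form 5 groups and share their PB or PC origin, so that these correlations are descriptions. *Gpr65* was nearest to *Brcc3* (r = 0.989), *Zranb3* (0.989) and *Pgm1* (0.984), and *Cd93* to *Rrm2* (0.995), a subunit of ribonucleotide reductase, and *Gas7* (0.993). *Sdc1* was nearest to *Rexo2* (r = 0.996), *Cd28* (0.993) and *Enpp1* (0.992). *Cxcr4* was nearest to *Ngp* (0.981), *Mtss1* (0.980) and *Lrrc8d* (0.980). *Ngp* is a granule gene of neutrophils and belongs to the neutrophil list above. The nearest genes of the others were *Sema4d*, *Phospho2* and *Abhd17b* for *Cxcr3*, *Atp1b1*, *Gm8369* and *Fancc* for *S1pr1*, *Crisp3*, *Zdhhc5* and *Pla2g12a* for *Cd44* and *Ypel2*, *Trim7* and *Adck5* for *Il6ra*, at r between 0.988 and 0.994. For the genes that varied least, *Ccr10* and *Selplg*, the nearest genes were *Snx12*, *Cyc1* and *Uqcrc1* and *Ube2g2*, *Ctage5* and *Sec62*, at r between 0.959 and 0.965.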

How the data were processed

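For the deposited TPM, the authors removed adapters with cutadapt, aligned reads to mm9 with STAR 2.4.2, counted reads per gene with featureCounts 1.5 and excluded genes of immunoglobulins and T cell receptors. Whether counting used the strand is not given in the sources used here. TPM are not counts, so that limma 3.58.1 (R 4.3.3) was used in place of the authors' DESeq2, and no counting interval can be given. Libraries were scaled by the median of ratios, and a gene was tested where 2 or more libraries of a fit reached 1 TPM, by lmFit and eBayes with trend on log2(scaled TPM + 0.1). Fold changes are on this scale, which understates the change of low genes. The fits held the 6 PB, the 4 PC or all 10 libraries. P-values were adjusted by Benjamini-Hochberg across the genes tested in each contrast, and calls were made under 0.05. An exact permutation test of 2 against 2 libraries cannot go below p = 0.333 and was not used. The study describes the RNA-seq experiments with PBs and with PCs as independent, but the sources used here do not say whether libraries came from separate animals, so that p-values measure the spread between these libraries, and no batch is given. The statistics were tested on simulated data.

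Mist1 peak positions were deposited as called by the authors with Bowtie 1.0.0 and MACS, for each experiment alone, against a B cell input. Peaks were merged to common regions and assigned with GENCODE M1 (mm9) in Python 3.11.15. A TSS region lies within 1 kb of any annotated start. Sequences were read from the NCBIM37 genome.

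The 10 genes and the lists of related and marker genes were chosen with earlier results of these data known. All 10 genes are named in each comparison; names from the other lists were taken from the up to 4 genes per list with the largest changes among those called and at least 2-fold changed, and others only where the text says so or where a count is small. Alternatives were TPM as deposited, quantile normalization, a pseudocount of 1, a filter at 5 TPM, no filter, eBayes without trend, other sets of libraries, each library left out, a peak overlap of 50% and a TSS distance of 2.5 kb. A few genes that these rules would name are not reported here.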

Additional observations from a re-analysis of the deposited data

Results flagged for a closer look

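By the interaction contrast, the change in Mist1-mutant cells differed between PCs and PBs for 2 of the 10 genes. Of 13230 genes tested, 6.11% passed. Stage, culture or mouse, sort gate, allele and control genotype cannot be told apart in it. For *Gpr65* the difference was -1.68 on the log2 scale (limma adjusted p = 0.00241, 2 libraries in each of 4 groups), with lower values in all mutant libraries at both stages. For *Cd93* it was -1.09 (limma adjusted p = 0.00394), with both mutant PC libraries below both control PC libraries by more than the range of the replicates and the PB libraries apart by less than that range. Over the 16 alternatives the adjusted p ranged from 0.000862 to 0.0191 for *Gpr65* and from 0.00133 to 0.0225 for *Cd93*.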

How the results depend on the processing

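Of the 27 calls of the 10 genes over the 6 comparisons, 20 were made under every alternative, namely 5 of 6 for *Cd23*-Cre *Xbp1* fl/fl PBs against controls, none of 1 for *Bhlha15* CreER/CreER PBs, 3 of 5 between the mutants, 2 of 5 in PCs, all 8 between the stages and both of the interaction. The number of calls for *Bhlha15* CreER/CreER PBs moved from 1 to 2 with TPM as deposited, quantile normalization, the filter at 5 TPM, the 4 libraries alone or all 10 in 1 fit, and to 0 with eBayes without trend (here 17 genes of all tested were called), and was 0 to 2 when a library was left out. In PCs it moved from 5 to 3 without a filter or with all 10 libraries and to 2 without trend. It also changed when a library was left out, more widely than in any other comparison. The ranges with a library left out were 6 to 7 for *Cd23*-Cre *Xbp1* fl/fl PBs against controls, 3 to 6 between the mutants, 8 to 10 between the stages and 2 to 4 for the interaction. Counts over all genes also moved, from 3436 to 4780 with TPM as deposited for *Cd23*-Cre *Xbp1* fl/fl PBs, from 39 to 86 for *Bhlha15* CreER/CreER PBs and from 3287 to 5243 between the mutants; in the latter the share of higher genes was 55.6% with quantile normalization and 49.0% with all 10 libraries (56.1% and 49.4% against the control), and in the interaction it went from 31.8% to 43.8% with quantile normalization. With eBayes without trend, 2240 instead of 3554 genes were called in PCs and 323 instead of 809 in the interaction. Between control PCs and PBs, TPM as deposited moved the median of all genes to 0.12.

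Among the 857 values of single genes under an alternative, 781 kept their direction and their side of the threshold, 26 lost and 30 gained a call, and 20 changed sign, none of them called before. *Ccr10* between the mutants changed to 0.23, 0.11 and 0.0485 with TPM as deposited, quantile normalization and all 10 libraries, and *Gpr65* there to 0.0207 with TPM as deposited. *Selplg* between the stages changed to 0.0645 with quantile normalization. With a library left out, log2 differences ranged from -0.0197 to 0.15 for *Sdc1*, -0.14 to 0.0490 for *Selplg*, -0.15 to 0.0341 for *Cd44* and -0.22 to 0.13 for *Il6ra* in *Bhlha15* CreER/CreER PBs, from -0.10 to 0.0535 for *Ccr10* between the mutants, from -0.10 to 0.21 for *S1pr1* and -0.25 to 0.00795 for *Selplg* in PCs, from -0.39 to 0.0143 for *Ccr10* and -0.25 to 0.0046 for *Selplg* between the stages, and from -0.18 to 0.0750 for *Selplg* in the interaction. The causes were not tested. Of the 10 genes, those with a Mist1 region at a TSS numbered 9 with a 50% overlap and 10 with 2.5 kb. Among 11721 expressed protein-coding genes, the shares were 55.7% and 62.9%. A stricter peak threshold was not run, as the lists give no score. No paired analysis was possible because the labels give no shared replicate numbers. In fits without a library, the lone library of a group is assumed to vary like the others, and the unknown depth limits the low values of *Cxcr3* and *Il6ra* in PBs most.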
